A study of Homo sapiens with 12 samples.

Results

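The genes described here are the 6 like-named ribosomal protein paralogs RPL22L1, RPL36AL, RPL7L1, RPL26L1, RPL39L and RPS27L. They were taken by gene symbol from a table of 15798 genes. The rule used no measured values, but earlier results of these data were known when it was set. Each paralog was compared with the ribosomal protein gene it is named after, its parent: RPL22, RPL36A, RPL7, RPL26, RPL39 and RPS27. All 6 paralogs and all 6 parents were listed in the table. Ribosome profiling was performed in HCT116, an established line of human colorectal cancer cells, to ask which mRNAs change in translation when MEK1/2 is inhibited. Cells received 100 nM trametinib, an inhibitor of the MEK1/2 kinases upstream of ERK, or the solvent DMSO for 24 h, and all cells received the elongation inhibitor cycloheximide shortly before lysis. The 4 groups of 3 biological replicates were DMSO input, trametinib input, DMSO footprints and trametinib footprints. Input was cytoplasmic RNA broken by alkaline fragmentation, and footprints were the RNase I-resistant fragments of the monosome fraction, so that both kinds of library held fragments of 25 to 35 nt.

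Each ribosome carries a set of ribosomal proteins in fixed amounts, and most of them are made from a single active gene. A few of these genes have a second copy with its own exons or a retained reading frame, whose protein can take the place of the parent protein in the ribosome or has acquired other tasks. The mRNAs of ribosomal proteins typically begin with a cytidine followed by an uninterrupted run of pyrimidines, the terminal oligopyrimidine (TOP) motif, through which mTOR signaling and the RNA-binding protein LARP1 control their translation as a group. Ribosome density, the footprints of an mRNA relative to its input, is the measure used here for how densely an mRNA is occupied by ribosomes.

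RPL22L1, RPL36AL, RPL26L1 and RPL39L encode close relatives of proteins of the large subunit. RPL22L1 can replace RPL22, an RNA-binding ribosomal protein that also acts on the RPL22L1 transcript itself. RPL36AL is an autosomal copy of the X-linked RPL36A, and RPL39L is known for its expression in male germ cells. RPS27L, the only small subunit paralog of the group, is a known target of the transcription factor p53. RPL7L1 is known for its part in the assembly of the large subunit in the nucleolus. The coding sequences of paralog and parent were 94.9% identical for RPL39L, 90.0% for RPL36AL, 84.2% for RPL26L1, 78.0% for RPS27L, 70.6% for RPL22L1 and 62.0% for RPL7L1.

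The table of the authors marks all 12 genes as TOP mRNAs, but the annotated start sites differ between paralogs and parents. The sequences shown are 30 bases of the sense strand, from 10 bases before the RefSeq start site (GRCh38.p14), chosen because they hold the feature on which TOP mRNAs are defined. Capitals mark the longest run of C and T that begins with C within 20 bases of the start site, where it is at least 5 bases long and lies whole in the printed stretch. Among the paralogs, RPL22L1 (chr3:170870176-170870205, minus strand) and RPL36AL (chr14:49620607-49620636, minus strand) held such a run.
RPL22L1: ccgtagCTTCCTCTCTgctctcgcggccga
RPL36AL: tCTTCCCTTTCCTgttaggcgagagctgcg
RPL7L1 (chr6:42879606-42879635, plus strand), RPS27L (chr15:63157458-63157487, minus strand) and both annotated starts of RPL26L1 (chr5:172958719-172958748 and chr5:172958870-172958899, plus strand) held none within the printed stretch.
RPL7L1: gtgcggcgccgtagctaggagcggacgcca
RPS27L: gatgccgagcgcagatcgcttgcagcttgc
RPL26L1 upstream start: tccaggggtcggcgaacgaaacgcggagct
RPL26L1 downstream start: ggcggcggccacaaacccgcaggcacgccg
The parents are shown for comparison: RPL22 (chr1:6199576-6199605, minus strand), RPL36A (chrX:101391001-101391030, plus strand), RPL26 (chr17:8383174-8383203, minus strand), RPL39 (chrX:119791611-119791640, minus strand) and RPS27 (chr1:153990752-153990781, plus strand).
RPL22: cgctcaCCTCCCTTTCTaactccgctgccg
RPL36A: ctcgcggtttCTTTCTTTCCgcgccgatag
RPL26: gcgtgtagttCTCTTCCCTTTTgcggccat
RPL39: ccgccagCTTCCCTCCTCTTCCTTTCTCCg
RPS27: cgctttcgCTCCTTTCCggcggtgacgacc

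The run was 10 bases long at RPL22L1 and 12 at RPL36AL, lengths that 7.63% and 3.81% of all 35116 RefSeq start sites reach or exceed. At the other paralogs shown it was 2 bases at RPL7L1, 3 at RPS27L, and 5 and 3 at the upstream and downstream starts of RPL26L1. The median over all start sites was 5. For the 5 parents shown the run ranged from 9 bases at RPS27 to 22 at RPL39. The set used held no start site for RPL39L and RPL7. It held 78 start sites of 63 core ribosomal protein genes, with a median run of 11. A C within 3 bases of the annotated start that is followed by at least 4 pyrimidines, also where it lies inside a longer run, was searched for after the sequences were seen. This was met by 13.0% of all start sites, 69.2% of the core ones, RPL22L1 and the 5 parents shown. RPL36AL, whose run began 9 bases upstream, did not meet it. Annotated starts can differ from those used in HCT116 cells, which were not measured.

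Reads that matched more than 1 gene symbol were not counted by the authors, so that each gene was measured on part of its reading frame. Of the possible 30-base reads of each reading frame, 100% belonged to that symbol alone for RPL22L1, RPL7L1, RPL26L1 and RPS27L, and also for the parents RPL7 and RPS27. RPL36AL kept 89.2% and RPL39L 81.5%. The parent RPL36A kept only 3.8%, or 12 of 316 read positions, since 89.6% of them are also annotated to the readthrough gene RPL36A-HNRNPH2. RPL26 kept 32.8% and RPL22 66.8%, each sharing sequence with an unnamed annotated gene. These shares were computed on a later Gencode release than that of the authors.

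The total of counts per library ranged from 2276693 to 2845568 for input (6 libraries) and from 10127477 to 19181588 for footprints (6 libraries). All 10 ERK output genes on the list used here were lower in trametinib input, with a median log2 change of -4.74, and the epithelial genes EPCAM, CDH1, KRT8 and KRT18 were detected in every library. The intestinal genes VIL1 and LGALS4 were at 0 to 2 counts. PTPRC and PECAM1 were at no more than 3 counts, and COL1A1 reached 36 counts in input and 148 in footprints. Levels are given as CPM, counts scaled to the size of the library by the TMM method within each kind of library. A gene was tested when at least 3 input libraries held at least 10 counts. This left 10663 genes, with 5 of the 6 paralogs and all 6 parents.

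RPL39L was the paralog left out of the tests, because almost no reads were assigned to it. Input held 3, 0 and 7 counts in DMSO and 4, 4 and 2 in trametinib. Footprints, at several times the depth, held 5, 0 and 11 counts in DMSO and 3, 0 and 2 in trametinib. The parent RPL39, of the same coding length, held between 370 and 574 counts in every input library. RPL39L thus took at most 1.86% of the counts of the pair in any library, and its levels were too low for a difference between treatments to be detectable at this depth. Other ribosomal protein paralogs with tissue-restricted expression, RPL3L of muscle and RPL10L of testis, were at no more than 6 counts in each library.

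**Figure D1:**
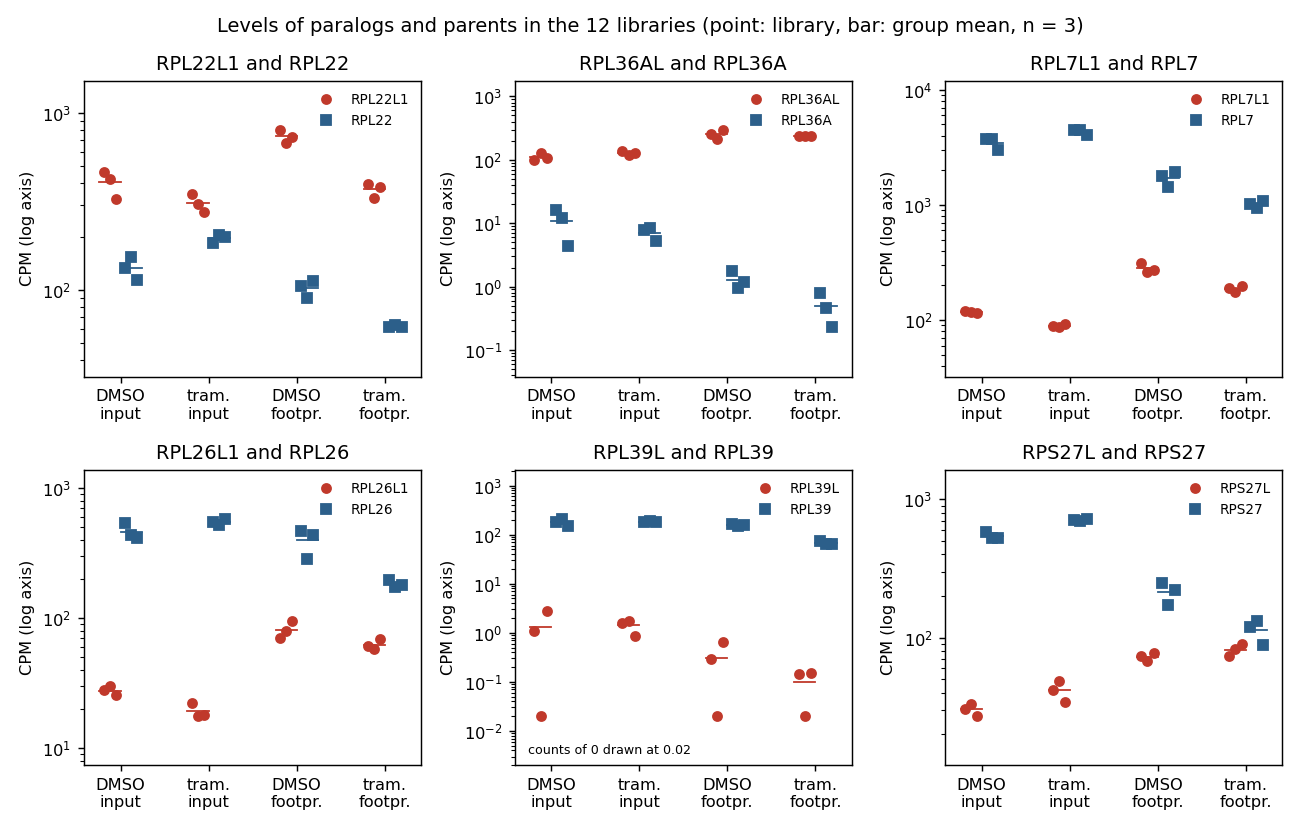
Levels of each paralog (red circles) and its parent (blue squares) in CPM, not divided by length, on a log axis, for the 3 libraries of each of the 4 groups, with bars at the group means. RPL22L1 and RPL36AL lay above their parents in every library, RPL7L1, RPL26L1 and RPL39L below, and RPS27L lay below RPS27 except in 1 of the 3 trametinib footprint libraries (counts of 0 are drawn at 0.02).

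To compare levels within a pair, counts were divided by coding length. RPL22L1 was the major form of its pair, with 76.1% ± 2.18 (SD, n = 3) of the input of RPL22L1 and RPL22 in DMSO, and 68.0% ± 2.62 when only read positions unique to each symbol were used as length. RPL7L1 held 3.22% ± 0.342 of its pair, RPS27L 5.24% ± 0.604 and RPL26L1 5.72% ± 0.726. For RPL26L1 this fell to 1.95% ± 0.257 with unique read positions. RPL36AL held 91.1% ± 5.17 of its pair by coding length but 34.2% ± 15.5 by unique read positions, of which RPL36A has 12, so that the order of these genes was not determined.

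The baseline comparison asked how densely the paralogs were occupied in DMSO, relative to all other mRNAs. All 5 tested paralogs had higher footprints than input. This call was made for 25.5% of the genes tested in that direction. The log2 baseline density was 0.89 (SE 0.18) for RPL22L1, 1.22 (SE 0.18) for RPL36AL, 1.29 (SE 0.15) for RPL7L1, 1.30 (SE 0.16) for RPS27L and 1.59 (SE 0.18) for RPL26L1. Adjusted p-values (edgeR quasi-likelihood test, Benjamini-Hochberg) lay between 0.000138 for RPL26L1 and 0.00254 for RPL22L1. None of the parents was higher. RPL36A (-3.01), RPS27 (-1.32) and RPL7 (-0.996) were lower, a call made for 27.1% of the genes. The value of RPL36A rests on 12 countable read positions and on 30, 9 and 20 DMSO footprint counts, and may not hold for its whole reading frame. RPL22 (-0.35), RPL26 (-0.19) and RPL39 (-0.16) did not pass the test (adjusted p = 0.116, 0.476 and 0.440). Scaled to library totals, RPL22 was also called lower (-0.47, adjusted p = 0.0428). No parent had an unadjusted p under 0.05 in the higher direction, a threshold that 58.7% of all genes passed in either direction, and DESeq2 also called 0.

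The core genes of the ribosome had mostly low baseline densities. Of the 79 core ribosomal protein genes 55 were lower and 5 higher at baseline (3 higher without the second DMSO input or the third DMSO footprint library), with a median of -0.76, against -0.018 over all genes. Only 1 of the 73 core genes that are not parents, RPLP2 with 1.42, lay above RPL22L1, RPL36AL, RPL7L1 and RPS27L, and none lay above RPL26L1. Ribosome biogenesis factors, the proteins that build ribosomes without being part of them, were mostly higher, with 13 of 19 called higher, 1 called lower and a median of 0.89. A baseline density of 0 stands for a gene whose share of footprints equals its share of input.

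The next comparison asked whether mRNA levels changed under trametinib. In these bulk lysates, fewer cells that express a gene and less RNA per cell cannot be told apart. Input of RPL7L1 was 121, 117 and 116 CPM in DMSO and 89.8, 86.5 and 92.6 CPM in trametinib, with no overlap. RPL7L1 was the only paralog to pass the test, with a log2 change of -0.40 (SE 0.14, edgeR adjusted p = 0.0489), and 16.8% of all genes were called lower. That call was lost when any single library other than the third DMSO library was left out (adjusted p = 0.0602 to 0.173), and with DESeq2 (adjusted p = 0.0824).

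Input of RPL22L1 was 465, 426 and 328 CPM in DMSO and 349, 305 and 275 CPM in trametinib. The groups overlapped through the third DMSO library, and the change of -0.39 (SE 0.16) did not pass (edgeR adjusted p = 0.0851), though without that library it did, at -0.52 (adjusted p = 0.0178). RPL26L1, at 27.7, 29.7 and 25.4 CPM in DMSO and 22.2, 17.6 and 18.0 CPM in trametinib, did not overlap. It had a change of -0.52 (SE 0.20, edgeR adjusted p = 0.0692). Input of RPS27L was 30.3, 33.3 and 27.0 CPM in DMSO, against 41.7, 48.7 and 34.2 CPM under trametinib. Its estimate pointed upward with no overlap, 0.46 (SE 0.19, edgeR adjusted p = 0.0903). Input of RPL36AL was 98.9, 128 and 107 CPM in DMSO, against 136, 119 and 130 CPM under trametinib. These groups overlapped, with a change of 0.20 (SE 0.16, edgeR adjusted p = 0.344).

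No paralog was called higher in input, where 15.4% of all genes were, and 1 of the 5, RPS27L, was higher at an unadjusted p under 0.05. RPL22L1, RPL7L1 and RPL26L1 were lower at that threshold, which 4 of 5 paralogs and 42.9% of all genes thus reached in either direction. DESeq2 and limma called 0 higher as well. Of the parents, RPL22 rose by 0.56 (SE 0.15, edgeR adjusted p = 0.0155) and RPS27 by 0.37 (SE 0.13, adjusted p = 0.0437). RPL22 lost its call without the second or the third trametinib library (adjusted p = 0.0767 and 0.0584), and RPS27 without any 1 library other than the first DMSO library (0.0642 to 0.138). The other parents had changes of 0.30 for RPL7, 0.25 for RPL26, 0.025 for RPL39 and -0.63 for RPL36A, none of which passed. Among the 79 core genes 9 were higher and 1 was lower, with a median of 0.20. The count of core genes higher was 20 without the first DMSO library, 2 without the second DMSO library, 1 without the first trametinib library, 0 without the second and 2 without the third, and that of core genes lower ranged from 0 to 2.

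Because library scaling cancels in a ratio of 2 genes of the same library, the balance within each pair was also compared directly. The log2 ratio of RPL22L1 to RPL22 in input was 1.80, 1.48 and 1.53 in DMSO and 0.92, 0.57 and 0.47 in trametinib. For RPL7L1 to RPL7 it was -4.94, -4.98 and -4.69 against -5.62, -5.68 and -5.44. The ratio of RPL26L1 to RPL26 was -4.26, -3.87 and -4.00 against -4.60, -4.87 and -4.99. In these 3 pairs every trametinib library lay below every DMSO library. The differences were -0.95, -0.71 and -0.77, each with an exact two-sided permutation p of 0.1, the smallest that 3 against 3 libraries allow, and 0.164 after Benjamini-Hochberg adjustment over 18 ratios. These differences contain the input changes of the parents, 0.56 for RPL22, 0.30 for RPL7 and 0.25 for RPL26. The median input change over all genes was -0.0015. Ratios of other genes to these parents were not formed, so no share over all genes stands beside the count of 3 pairs. RPL22L1 accordingly held 62.2% ± 3.8 of the input of its pair in trametinib, against the 76.1% in DMSO, RPL7L1 1.99% ± 0.175 and RPL26L1 3.41% ± 0.472. By unique read positions RPL22L1 held 52.4% ± 4.06 in trametinib, with 49.3% in the lowest library, against 68.0% in DMSO. On that measure RPL22L1 and RPL22 were about equal in trametinib input. The ratio of RPS27L to RPS27 (difference 0.074, exact permutation p = 0.7) and that of RPL36AL to RPL36A (0.65, exact permutation p = 0.4) overlapped between the treatments.

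Footprints were compared in the same way to ask how the footprint level of each gene changed relative to other mRNAs. The paper reports that trametinib lowered protein synthesis as a whole in these cells. Scaling within the footprint libraries removes a change common to all mRNAs, so total ribosome occupancy was not measured here. The footprint level of RPL22L1 was 799, 681 and 734 CPM in DMSO and 397, 330 and 382 CPM in trametinib. No value of one group came near the other. RPL22L1 fell by 1.00 on the log2 scale (SE 0.12, edgeR adjusted p = 0.000260), to 0.501 of its DMSO level. RPL7L1 fell from 313, 261 and 271 to 189, 174 and 196 CPM, again without overlap, a change of -0.60 (SE 0.11, edgeR adjusted p = 0.00272). RPL26L1 fell from 69.8, 79.0 and 94.8 to 60.5, 57.6 and 68.6 CPM, a change of -0.38 (SE 0.14, edgeR adjusted p = 0.0429). The highest trametinib library of RPL26L1 was close to the lowest DMSO library, and the call was lost without any 1 library other than the first DMSO library (adjusted p = 0.0514 to 0.151), and when libraries were scaled to their totals (-0.21, adjusted p = 0.233).

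The other two paralogs did not pass the test in footprints. RPL36AL footprints measured 256, 215 and 291 CPM in DMSO, against 235, 236 and 238 CPM under trametinib. All its trametinib libraries fell inside the DMSO range, and the change was -0.11 (SE 0.13, 95% interval -0.40 to 0.19, edgeR adjusted p = 0.519), with the opposite sign, 0.072, when scaled to library totals. RPS27L footprints measured 74.0, 67.4 and 76.9 CPM in DMSO, against 73.7, 82.2 and 89.6 CPM under trametinib. Its change was 0.17 (SE 0.11, 95% interval -0.090 to 0.43, edgeR adjusted p = 0.246), which became a call of 0.35 (adjusted p = 0.0279) with library totals, a scaling that moves the median of all genes from -0.013 to 0.16.

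Thus 3 of the 5 tested paralogs were lower in footprints and none was higher, against 25.6% and 23.9% of all genes, and 0 of the paralogs were higher with DESeq2, with limma or at an unadjusted p under 0.05, which 56.3% of all genes reached in either direction. With library totals, which turn the calls over all genes from 48.3% higher to 64.8% higher, 1 paralog was higher and 2 were lower. All 6 parents were lower. Their changes were -0.72 for RPL22, -0.75 for RPL7, -0.93 for RPS27, -1.11 for RPL26, -1.21 for RPL39 and -1.33 for RPL36A, with edgeR adjusted p-values up to 0.0293. RPL36A rested on 3 to 30 counts per library and lost its call without the first DMSO library, the second trametinib library or the third trametinib library (adjusted p = 0.0691, 0.0924 and 0.0813). Of the core genes 78 of 79 were lower, with a median of -0.95.

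**Figure D2:**
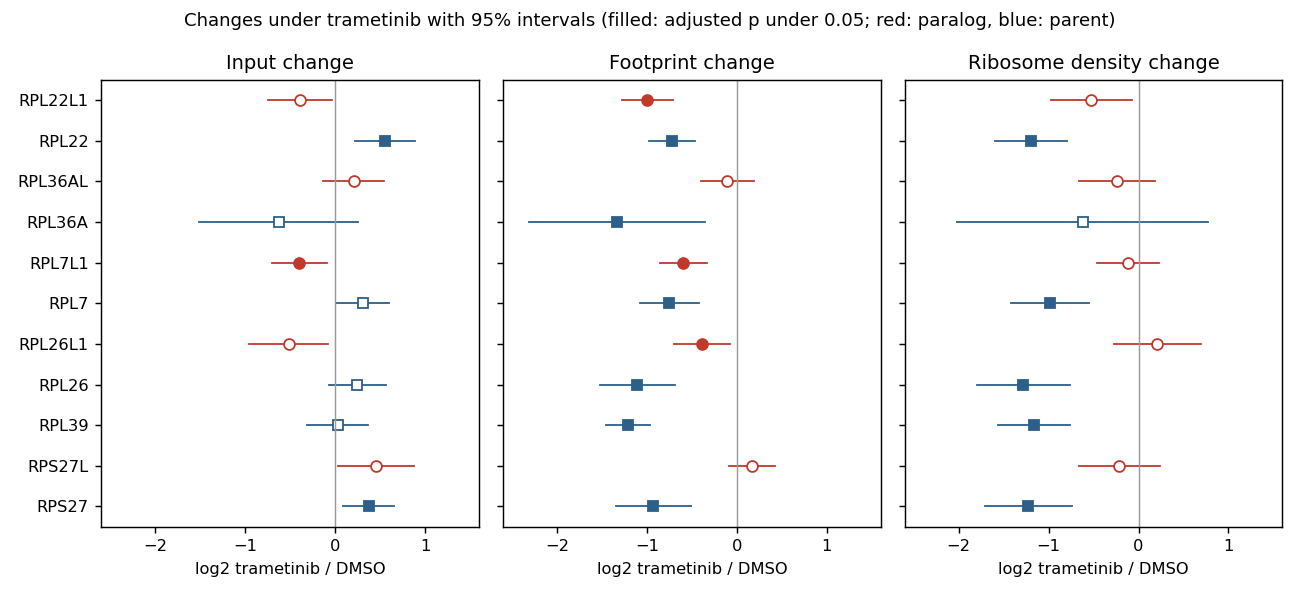
Log2 changes of trametinib over DMSO for input, footprints and ribosome density of the 5 tested paralogs (red circles) and the 6 parents (blue squares), with 95% intervals and filled symbols where the edgeR adjusted p was under 0.05. All changes are relative to other mRNAs. In footprints the intervals of RPL36AL and RPS27L include 0, while all parents lie below. In ribosome density the 5 parents other than RPL36A lie near -1 or lower, while the paralogs lie between -0.53 and 0.21.

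Ribosome density was compared in 1 model over all 12 libraries, as the interaction of assay and treatment. The question was whether translation, relative to other mRNAs, changed beyond mRNA abundance. None of the 5 tested paralogs was called, while 0.816% of all genes were called lower and 0.0938% higher. An unadjusted p under 0.05 was reached by 1 paralog, RPL22L1, which was lower, and by 8.81% of all genes in either direction, and DESeq2 and limma called 0 paralogs. This comparison uses the same libraries as those of input and footprints and is not independent of them. The median standard error over all genes was 0.266, against 0.216 for input and 0.152 for footprints, and the intervals of the paralogs are therefore given. Over all genes 10 were higher and 87 lower, or 27 and 78 when libraries were scaled to their totals, which moves the median of all genes from 0.070 to 0.18 and leaves 0 paralogs called.

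RPL22L1 had the lowest density change of the paralogs, -0.53 (SE 0.21, 95% interval -0.98 to -0.078, edgeR unadjusted p = 0.0246, adjusted p = 0.447). An input and a footprint library of the same treatment and number were treated as 1 dish, and its log2 density per dish was 0.78, 0.68 and 1.16 in DMSO and 0.19, 0.12 and 0.47 in trametinib. These dishes did not overlap. RPL36AL had a change of -0.24 (SE 0.20, 95% interval -0.66 to 0.19, adjusted p = 0.833), with DMSO dishes at 1.37, 0.75 and 1.44 and trametinib dishes at 0.79, 0.99 and 0.87. Its trametinib dishes lay within the DMSO range.

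RPS27L, RPL7L1 and RPL26L1 had higher estimates, though RPS27L lay close to RPL36AL. Without the third DMSO footprint library RPL36AL (-0.11) lay above RPL7L1 (-0.14) and RPS27L (-0.16). A relation to the pyrimidine runs was not tested. RPS27L changed by -0.21 (SE 0.21, 95% interval -0.66 to 0.24, adjusted p = 0.880), from dishes at 1.28, 1.01 and 1.499 to dishes at 0.82, 0.75 and 1.38, which overlapped. RPL7L1 changed by -0.12 (SE 0.16, 95% interval -0.47 to 0.22, adjusted p = 0.932), and its dishes moved from 1.37, 1.15 and 1.22 to 1.07, 1.01 and 1.08, a small shift without overlap. RPL26L1 was the only paralog with an estimate above 0, at 0.21 (SE 0.23, 95% interval -0.28 to 0.69, adjusted p = 0.901), with overlapping dishes, 1.32, 1.40 and 1.89 for DMSO against 1.43, 1.70 and 1.91 for trametinib. The 95% intervals of all 5 paralogs overlapped one another, so that their order is not resolved. In all, 2 of 5 paralogs had lower trametinib dishes without overlap, against 9.51% of all tested genes.

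**Figure D3:**
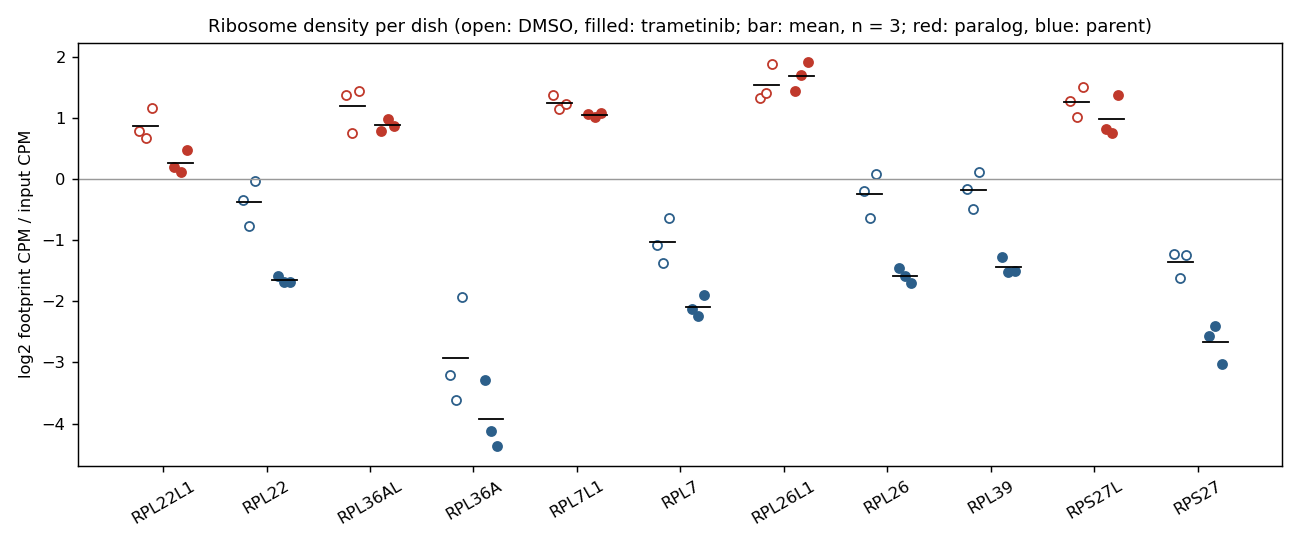
Log2 ribosome density (footprint CPM over input CPM) per dish for the 5 tested paralogs (red) and the 6 parents (blue), with open circles for DMSO, filled circles for trametinib and bars at the mean of 3 dishes. Paralogs lay above 0 in every dish of both treatments, and all parents but RPL36A fell without overlap to means between -1.44 and -2.67.

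Ribosome density of the parents fell in 5 of 6 cases. The change was -1.28 (SE 0.24, edgeR adjusted p = 0.0176) for RPL26, -1.23 (SE 0.22, adjusted p = 0.0142) for RPS27, -1.20 (SE 0.19, adjusted p = 0.00531) for RPL22, -1.16 (SE 0.19, adjusted p = 0.00610) for RPL39 and -0.98 (SE 0.20, adjusted p = 0.0300) for RPL7. RPL36A, with few counts, had a wide interval, -0.62 (95% interval -2.02 to 0.77, adjusted p = 0.892). The call of RPL7 was lost without any 1 of 6 libraries (adjusted p = 0.0547 to 0.130), namely the second DMSO input, the third DMSO footprints, the first or second trametinib input, and the first or second trametinib footprints. RPL26 lost its call without the second DMSO input or the second trametinib footprints (adjusted p = 0.0589 and 0.0773). All 79 core genes had estimates below 0, with a median of -1.01, against 0.070 over all tested genes. Of them 55 were called lower, against 33 without the second trametinib footprint library. With the DESeq2 likelihood ratio test 68 were called lower, as with a replicate block for each dish.

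Set against the 73 core genes that are not parents, whose density changes ran from -1.52 for RPL30 to -0.26 for RPS26, 4 paralogs lay above every core gene: RPL36AL, RPS27L, RPL7L1 and RPL26L1. RPL22L1 lay inside this range, with 6 core genes above it and 67 below. Among all tested genes, RPL22L1 was at percentile 5.82, RPL36AL at 17.0, RPS27L at 18.5, RPL7L1 at 26.1 and RPL26L1 at 68.8, while the parents other than RPL36A lay between percentiles 0.553 and 1.40. These positions describe the estimates and were not tested.

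**Figure D4:**
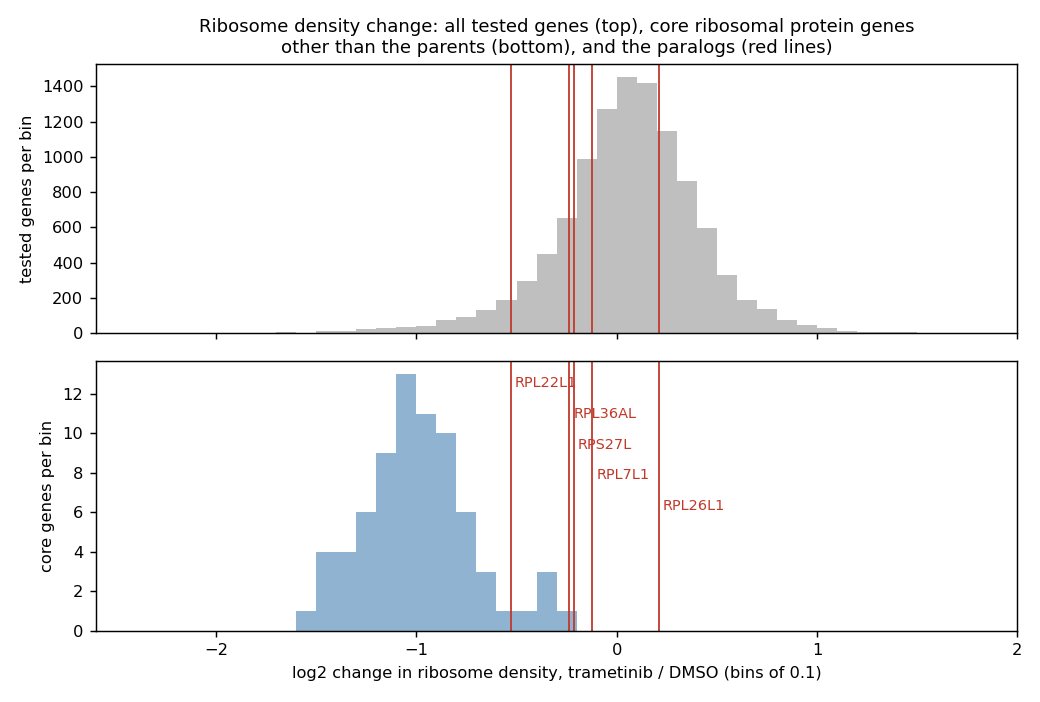
Distribution of the log2 ribosome density change, in bins of 0.1, for all 10663 tested genes (top) and for the 73 core ribosomal protein genes that are not parents (bottom), with red lines at the 5 tested paralogs. The core genes lie between -1.52 and -0.26, and RPL22L1 lies at their upper edge. The estimates of the other 4 paralogs lie above them, those of RPL36AL and RPS27L by less than their SE.

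The difference in density between paralog and parent was tested per dish, as the log2 ratio in footprints minus that in input. For RPL26L1 and RPL26 it rose from 1.53, 2.03 and 1.80 in DMSO to 2.89, 3.29 and 3.61 in trametinib, a difference of 1.48. For RPS27L and RPS27 it rose from 2.51, 2.62 and 2.75 to 3.38, 3.16 and 4.41, a difference of 1.02. The gap between RPL7L1 and RPL7 went from 2.44, 2.53 and 1.87 to 3.19, 3.25 and 2.98, a difference of 0.86, and that between RPL22L1 and RPL22 from 1.12, 1.44 and 1.19 to 1.77, 1.81 and 2.17, a difference of 0.66. In these 4 pairs every trametinib dish lay above every DMSO dish. The exact two-sided permutation p was 0.1 each, the smallest possible in this design, with an adjusted p of 0.164. These differences contain the fall of the parents, -1.28 for RPL26, -1.23 for RPS27, -0.98 for RPL7 and -1.20 for RPL22. The median density change of all tested genes was 0.070, so a rise against these parents is not particular to the paralogs. Ratios of other genes to these parents were not formed. The dishes of RPL36AL and RPL36A overlapped (difference 0.70, exact permutation p = 0.3).

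The shares held by each paralog were then set side by side for input and footprints. Of the footprints of its pair, RPS27L held 25.5% ± 2.63 (SD, n = 3) in DMSO and 42.3% ± 6.9 in trametinib, while its input share was 5.24% ± 0.604 and 5.54% ± 1.01. RPL26L1 went from 17.6% ± 4.42 to 25.4% ± 2.19 of the footprints although its input share went from 5.72% to 3.41%. With unique read positions as length the footprint shares of RPL26L1 were lower, 6.59% ± 1.86 and 10.1% ± 1.05. Footprint log2 ratios of both pairs did not overlap between treatments, with differences of 1.10 for RPS27L and 0.70 for RPL26L1 (exact permutation p = 0.1, adjusted p = 0.164). These differences contain the footprint fall of the parents, -0.93 for RPS27 and -1.11 for RPL26, against a median of -0.013 over all genes.

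For RPL7L1 the footprint share was 14.0% ± 1.67 in DMSO and 15.2% ± 0.124 in trametinib, and the ratios overlapped (difference 0.15, exact permutation p = 0.2). Between footprint libraries of the same number, the ratio was higher in trametinib in 3 of 3 pairs (-2.50 to -2.43, -2.44 to -2.43 and -2.83 to -2.45), with an exact two-sided paired permutation p of 0.25, the smallest that 3 pairs allow. RPL22L1 remained the major form in footprints, with 88.3% ± 0.847 in DMSO and 86.1% ± 1.41 in trametinib, or 83.5% ± 1.13 and 80.6% ± 1.84 by unique read positions. Its log2 ratio was 2.92, 2.92 and 2.72 in DMSO and 2.69, 2.38 and 2.64 in trametinib, a difference of -0.29 without overlap (exact permutation p = 0.1). RPL36AL gave 99.5% ± 0.158 and 99.8% ± 0.119, with RPL36A counted on the 12 read positions described above.

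**Figure D5:**
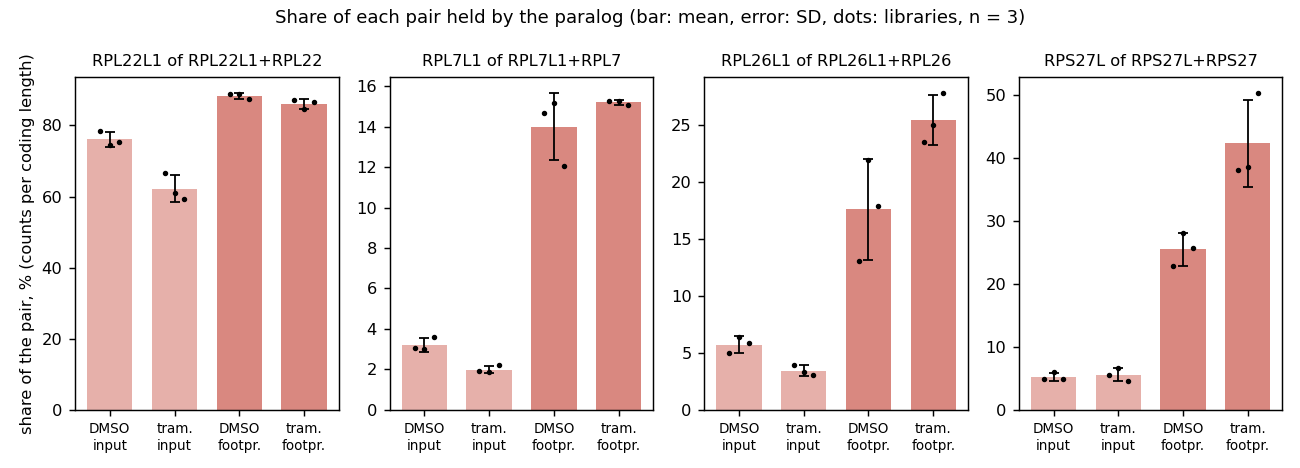
Share of each pair held by the paralog in percent, from counts per coding length, in the 4 groups, with bars at the mean, error bars of 1 SD and dots for the 3 libraries. The RPS27L share of footprints was 25.5% in DMSO and 42.3% in trametinib while its input share stayed near 5%, and the RPL22L1 share of input was 76.1% in DMSO and 62.2% in trametinib while its share of footprints was at least 84.5% in each library.

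Calls among other genes of the pathways in which the paralogs are known were set beside the rates for any tested gene. For input these rates were 15.4% (higher) and 16.8% (lower), and for footprints 23.9% and 25.6%. For ribosome density they were 0.0938% and 0.816%. Whether a list departs from these rates was not tested. Of 20 p53 target genes, a group to which RPS27L belongs by its regulation, 5 were higher and 3 lower in input, 5 were higher and 5 lower in footprints, and 0 were called in ribosome density by edgeR. Of 19 tested ribosome biogenesis factors, the group closest in role to RPL7L1, 14 were lower in input with a median of -0.76 and 17 in footprints with a median of -0.89. Only 1 of them, the nucleolar methyltransferase FBL, was lower in ribosome density (-1.05). The changes of RPL7L1, -0.40 in input and -0.60 in footprints, had the direction of these factors. The estimates of RPL22L1 and RPL26L1 also pointed downward in both input and footprints, so this direction is not particular to RPL7L1. Those of RPL36AL and RPS27L pointed upward in input. A link between RPL7L1 and these factors was not tested. Over all 98 tested genes that the authors mark as TOP mRNAs, the paralogs included, 60 were lower in ribosome density and the median was -0.98.

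The genes whose levels moved most like each paralog over the 12 libraries were found among 7169 genes, by the smallest Euclidean distance of log2 CPM after centring within each kind of library. They were DCUN1D5, NFX1 and CCNT1 for RPL22L1 (distances 0.41 to 0.44), PITPNB, CPNE3 and THOC7 for RPL36AL (0.34 to 0.36) and GTF2F2, SART3 and NUP42 for RPL7L1 (0.26 to 0.27). For RPL26L1 they were TTC27, C12orf29 and TRIM37 (0.30 to 0.32), and for RPS27L MPHOSPH8, TOR1AIP1 and LRRC1 (0.33 to 0.35). No parent and no core ribosomal protein gene was among them. At most 79 of the 7169 candidates were core genes, so their absence from so short a list is not read as a result.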

How the data were processed

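The authors trimmed adapters, used Bowtie 1.2.2 to remove rRNA and tRNA reads, mapped the rest to Gencode 38 and counted reads of 25 to 35 nt inside reading frames of a single gene symbol. The deposited table of the authors holds whole-number counts for 12 libraries, normalized counts (a signal: each count times a constant per library, whose size factors were recomputed here from the counts in 12 of 12 libraries), a mark for TOP mRNAs, and log2 changes with adjusted p-values of the authors' DESeq2 1.46.0 tests, which were not used.

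Raw counts were tested with edgeR 4.0.16 (quasi-likelihood, TMM) in R 4.3.3, with Benjamini-Hochberg adjustment over all 10663 genes with 10 or more counts in 3 or more input libraries, and called at an adjusted p under 0.05. The edgeR fits were tested on simulated data with known changes. The authors' likelihood ratio test was an alternative, with DESeq2 1.42.0, as was limma-trend (limma 3.58.1, prior count 2). Since the scaling is relative, a change common to all mRNAs cannot be seen. Ratios of paralog to parent used 0.5 added counts and an exact two-sided permutation test. Coding lengths and read uniqueness were computed from Gencode 44 (GRCh38), and start sites were taken from RefSeq, which matched 5 paralogs and 5 parents. The genes named are the 6 paralogs, their 6 parents and the 3 genes most alike each tested paralog. The lowest and highest core gene, the core gene above a paralog, FBL and the marker genes were named after their values were seen. The paralogs and the gene lists were chosen with earlier results of these data known.

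Groups and replicate numbers came from the labels. Deviations from group means of same-numbered DMSO and trametinib libraries were correlated over 7669 genes. The values were 0.117, 0.133 and 0.294 in footprints and 0.0680, 0.0484 and 0.334 in input, which does not set footprints apart. The numbers were taken to pair footprint libraries, where a replicate block changed no call of a paralog or parent. The main fits held no block. With a block for each dish, 31 genes were higher and 127 lower in ribosome density, in place of 10 and 87, with 0 paralogs called. An input and a footprint library with equal treatment and number are called a dish, because the study's methods take input and footprints from 1 lysate. Correlations of their deviations were 0.816, 0.181 and 0.343 for DMSO, and 0.141, 0.0803 and -0.122 for trametinib.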

Additional observations from a re-analysis of the deposited data

How the results depend on the processing

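Depth limits RPL39L in all libraries, RPL36A, and the input of RPL26L1 and RPS27L. Of 692 values of a change of a single paralog or parent under an alternative, 635 kept direction and side of the threshold. No alternative gave a call for a paralog in ribosome density.

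In input, the replicate block gave 2 paralogs lower (RPL22L1 with adjusted p = 0.0330), DESeq2 and no filter gave 0, an adjusted p under 0.1 gave 3 lower and 1 higher, and a 2-fold minimum gave 0 paralogs lower, 0 parents higher, and 720 genes higher and 932 lower in place of 1641 and 1787. Parents higher numbered 1 with the filter on libraries of either kind and with no filter. In footprints, library totals gave 1 paralog higher and reversed RPL36AL to 0.072. The 2-fold minimum gave 0 paralogs and 3 parents lower, and 737 genes higher and 998 lower. In ribosome density, genes higher numbered 10, but 5 with median-of-ratios factors, 27 with library totals, 6 with the filter on either kind, 37 with the DESeq2 likelihood ratio test (150 lower), 31 with a replicate block for each dish and 30 at an adjusted p under 0.1. For baseline density, the counts over all genes, paralogs and parents stayed within 1.5 times under every alternative, and library totals added RPL22 to the parents called lower.

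Leaving out 1 library at a time gave, in input, 1069 to 1767 genes higher and 1221 to 1923 lower, 0 to 2 paralogs lower, 0 to 4 parents higher and 0 to 1 lower. In footprints it gave 1878 to 3176 genes higher, 2012 to 3247 lower, 2 to 3 paralogs lower and 5 to 6 parents lower. In ribosome density it gave 1 to 12 genes higher, 49 to 101 lower and 3 to 5 parents lower. It reversed RPL39 in input (-0.097 to 0.14, lowest without the third DMSO library), RPL36AL in footprints (-0.21 to 0.018, highest without the third DMSO library), RPL26 at baseline (-0.32 to 0.026, highest without the second DMSO footprint library) and the input ratio of RPS27L to RPS27 (-0.061 to 0.22, lowest without the second trametinib library). The ratio of RPL39L to RPL39, formed from near-zero counts, ranged from -0.46 to 1.81 in input, -0.94 to 0.87 in footprints (0.077 with all libraries) and -1.47 to 0.22 in density. It could not be computed without an added count, since some counts are 0. Paired by replicate number, the 18 ratios had the same differences, since the replicate block changes only their p.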
